A study of Homo sapiens with 6 samples.

Results

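Small nucleolar RNA host genes are genes whose introns carry small nucleolar RNAs (snoRNAs). The set was chosen by symbol from GENCODE release 29 and holds every gene named SNHG followed by a number, together with GAS5, ZFAS1, EPB41L4A-AS1 and DANCR. This gave 29 gene IDs with 28 symbols, since SNHG28 has 2 IDs, out of 58780 annotated genes in the deposited tables. RNA came from HCT116, an established human colorectal carcinoma cell line, given auxin for 16 h in 3 libraries or DMSO, the solvent control, in 3 libraries. The labels number the libraries of each group as biological replicates 1 to 3. Auxin, a hormone of plants, is given to cells in which a protein carries a degron tag in order to deplete that protein. The labels name neither such a protein nor a tagging allele, nor how long DMSO was given. Total RNA was depleted of ribosomal RNA before a stranded library was made.

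A host gene is transcribed and spliced, and the snoRNAs are cut from the introns that splicing removes. snoRNAs guide the chemical modification and cleavage of ribosomal and other RNAs. The spliced exons of many non-coding hosts encode no known protein, hold short reading frames and are degraded by nonsense-mediated decay (NMD), the pathway that removes RNAs with early stop codons. GAS5 is a well-known example. Several hosts begin with a run of pyrimidines (5′ TOP), as mRNAs of ribosomal proteins do, which ties their translation, and with it their decay, to growth conditions.

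RefSeq promoter entries (GRCh38.p14) were found for 24 of the 28 symbols. At the annotated start, read on the transcribed strand, 6 of the 24 (25%) had a C followed by at least 4 bases that were each C or T. The same held for 4.07% of the 35116 promoters in the table. The 6 were SNHG12, SNHG18, SNHG4, SNHG5, SNHG19 and ZFAS1. The 40 bases around the start are printed for 4 of them and for SNHG1, whose RefSeq start lacks such a run, because this start is a feature by which the family is known. In those 4, capitals mark the uninterrupted run of C and T from the start base on. A match is a description of these letters only.
ZFAS1, chr20:49278627-49278666, + strand: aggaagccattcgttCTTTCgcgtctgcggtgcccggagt
SNHG12, chr1:28581849-28581888, - strand: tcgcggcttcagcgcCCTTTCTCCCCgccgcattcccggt
SNHG5, chr6:85678709-85678748, - strand: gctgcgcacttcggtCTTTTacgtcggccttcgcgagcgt
SNHG4, chr5:139274086-139274125, + strand: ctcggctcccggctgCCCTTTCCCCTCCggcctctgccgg
SNHG1, chr11:62855861-62855900, - strand: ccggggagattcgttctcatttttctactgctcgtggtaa

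The libraries held between 234037969 and 625895062 expected counts, and replicate 1 was the deepest in both groups. The host genes took 0.0651% to 0.0767% of a library's counts. Summed over 5 epithelial markers, TPM (an abundance scaled by transcript length and library size) lay between 1254 and 1752 in DMSO and between 1599 and 1869 in auxin libraries. The 3 leukocyte markers were at 0 in every library, and 4 mesenchymal markers together reached at most 2.77 TPM.

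After auxin the host genes moved in both directions: a minority fell, a smaller number rose, and the fold changes ran from -1.06 to 1.40 on the log2 scale. Of the 29, 26 had enough counts to be tested. With edgeR's quasi-likelihood test and Benjamini-Hochberg adjustment over all 19725 genes tested, 4 rose and 6 fell at an adjusted p under 0.05. That is 38.5% of the tested hosts, beside 52.3% of all genes tested (25.4% higher and 26.9% lower). Ranges of the 3 auxin and 3 DMSO values were apart for 10 hosts, 4 above and 6 below, again 38.5%, beside 60.3% of all genes (30.0% above and 30.4% below). The median log2 fold change was 0.05 over the tested hosts and 0.02 over all genes tested. In bulk RNA, fewer cells with a transcript and less of it per cell cannot be told apart.

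**Figure D1:**
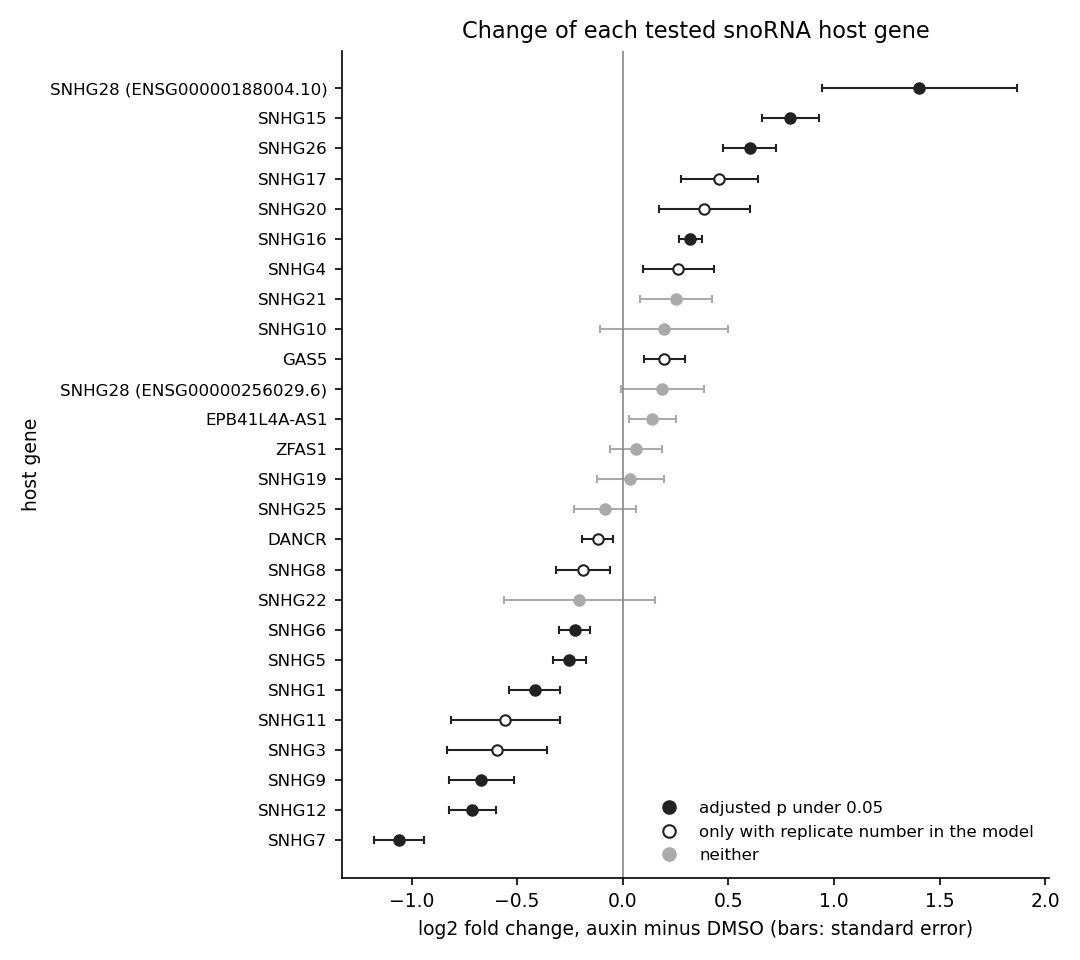
Log2 fold change (auxin minus DMSO) of the 26 tested host genes with its standard error, from edgeR. Filled points passed an adjusted p under 0.05, open points passed only with the replicate number in the model, and grey points passed neither; the values run from -1.06 (SNHG7) to 1.40 (SNHG28).

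With the replicate number as a block in the model, 18 hosts passed, 8 higher and 10 lower (69.2%, beside 69.9% of all genes in that fit, 35.5% higher and 34.4% lower). With replicates 2 and 3 only, 7 were higher and 10 lower, where 62.0% of all genes passed (30.2% and 31.8%). DESeq2 called 5 higher and 7 lower, beside 53.6% of all genes (26.0% and 27.6%). In 21 of the 26 hosts, all 3 pairs of same-numbered libraries moved in a single direction. The share of all genes that did so is not given here, so this count does not set the hosts apart. Upper-quartile scaling, which raises the median log2 fold change of all genes by 0.12, gave 6 higher and 3 lower, beside 55.5% of all genes (33.1% and 22.4%). SNHG1, SNHG5 and SNHG6 lost their calls there, and GAS5 and SNHG17 gained them. On log2(TPM + 0.1) with limma, 5 hosts passed: SNHG28 rose, and SNHG7, SNHG12, SNHG9 and SNHG3 fell, beside 21.5% of all genes (5.16% and 16.3%). Without auxin replicate 2, and likewise without auxin replicate 3, 6 hosts passed, and these were SNHG15, SNHG16, SNHG26, SNHG7, SNHG9 and SNHG12. The share of all genes that passed with these libraries left out is not given here.

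Levels between hosts are given per length, as TPM. In DMSO the order was SNHG6 (183 ± 42.2, SD, n = 3), SNHG16 (175 ± 33.1), SNHG8 (98.2 ± 3.72), ZFAS1 (92.2 ± 6.63), GAS5 (79.9 ± 11.1), SNHG3 (73.6 ± 30.4) and SNHG1 (72.1 ± 26.4). Next came SNHG25 (61.7 ± 25.9). Neighbours in this order differed by less than the sum of their SDs, except SNHG16 and SNHG8. In auxin, SNHG16 stood at 193 ± 25.6 TPM and SNHG6 at 132 ± 28.7, so that their mean levels changed places. SNHG27 and SNHG18 were at 0 in every library. SNHG14, the long host transcript of the imprinted region that also holds UBE3A, had 1 to 11 counts per library and was not tested.

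Among the hosts that fell, SNHG7 (chr9:136721366-136728184, - strand; gene positions are on GRCh38, from GENCODE 29) changed most. Its normalised counts (CPM, counts scaled to library size by edgeR) were 7.86, 6.84 and 6.36 in DMSO replicates 1 to 3 and 3.68, 3.26 and 3.16 in auxin. All auxin libraries lay below all DMSO libraries. SNHG7 fell by 1.06 on the log2 scale (SE 0.12, adjusted p = 0.000302), and the call held without any single library (largest adjusted p 0.00247). Its introns carry H/ACA snoRNA genes of the SNORA17 family, which guide pseudouridylation.

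SNHG12 (chr1:28578538-28583132, - strand) overlaps TRNAU1AP at its edge and hosts SNORA16A, SNORA44, SNORA61 and SNORD99. Its CPM were 13.9, 12.1 and 11.8 in DMSO and 8.60, 7.0 and 7.43 in auxin. The groups did not overlap. SNHG12 fell by 0.71 on the log2 scale (SE 0.11, adjusted p = 0.00151).

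SNHG9 (chr16:1964959-1965509), a short host of SNORA78 beside RPS2, had a mean of 3.44 ± 0.473 CPM in DMSO and 2.16 ± 0.272 in auxin (SD, n = 3 each). It fell by 0.67 on the log2 scale (SE 0.15, adjusted p = 0.00866).

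SNHG1 (chr11:62851988-62855914, - strand) hosts several box C/D snoRNAs, which guide 2′-O-methylation. Its CPM were 71.2, 60.8 and 57.5 in DMSO and 55.1, 43.0 and 43.9 in auxin. The highest auxin library was below the lowest DMSO library by less than the spread within either group. SNHG1 fell by 0.42 on the log2 scale (SE 0.12, adjusted p = 0.0230). The call was lost with upper-quartile scaling (adjusted p = 0.115), on log2(TPM + 0.1) (0.308), without auxin replicate 2 (0.0790) and without auxin replicate 3 (0.0820).

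SNHG5 (chr6:85660950-85678748, - strand) hosts box C/D snoRNAs and starts with a pyrimidine run, as printed above. Its CPM were 14.8, 17.1 and 15.5 in DMSO and 13.2, 13.1 and 13.4 in auxin, without overlap. SNHG5 fell by 0.25 on the log2 scale (SE 0.08, adjusted p = 0.0280). SNHG6, host of SNORD87, had 45.8, 46.4 and 43.7 CPM in DMSO and 41.8, 38.7 and 35.5 in auxin. It fell by 0.23 on the log2 scale (SE 0.07, adjusted p = 0.0330). For both, the gap between the groups was smaller than the spread within DMSO. Neither call was stable: with upper-quartile scaling the adjusted p was 0.195 for SNHG5 and 0.338 for SNHG6, and leaving out single libraries took it to at most 0.0889 and 0.110.

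SNHG3, SNHG11 and SNHG8 passed as lower in edgeR with the replicate block and not without it, and are named after their values were seen. SNHG3 (chr1:28505980-28510892, + strand), host of the abundant H/ACA RNAs SNORA73A and SNORA73B, had 50.5, 33.8 and 33.4 CPM in DMSO and 34.7, 21.6 and 21.6 in auxin. The groups overlapped, with replicate 1 high in both, while each auxin library was below its same-numbered DMSO library. Its log2 fold change was -0.59 (SE 0.24), with an adjusted p of 0.0719 in edgeR without the block, 1.44e-06 with it and 0.0192 in DESeq2. On log2(TPM + 0.1) with limma it was -1.21 (adjusted p = 0.0388, without the block), with means of 73.6 TPM in DMSO and 31.7 in auxin. SNHG11 (-0.56, SE 0.26) had adjusted p-values of 0.112 and 0.00332 without and with the block. SNHG8 (-0.19, SE 0.13) had 0.251 and 0.00199.

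Of the hosts that rose with a mean of at least 5 CPM, SNHG15 changed most. SNHG15 (chr7:44983023-44986961, - strand) hosts SNORA9 and its transcript is short-lived in human cells. Its CPM were 11.5, 9.32 and 9.07 in DMSO and 20.1, 15.7 and 16.1 in auxin. Every auxin library was above every DMSO library. SNHG15 rose by 0.79 on the log2 scale (SE 0.14, adjusted p = 0.00224). On log2(TPM + 0.1) its adjusted p was 0.0875.

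SNHG16 (chr17:76557766-76565348, + strand), a host of SNORD1 family genes, had the most counts of the set. Its CPM were 295, 307 and 302 in DMSO and 375, 382 and 370 in auxin. The 2 groups were tight and apart. SNHG16 rose by 0.32 on the log2 scale (SE 0.05, adjusted p = 0.00226). Its TPM were 175 ± 33.1 and 193 ± 25.6 (SD, n = 3 each), and on log2(TPM + 0.1) the call was lost (adjusted p = 0.594).

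SNHG26 rose from a mean of 1.74 ± 0.214 to 2.63 ± 0.102 CPM, by 0.60 on the log2 scale (SE 0.13, adjusted p = 0.00629), and had an adjusted p of 0.389 on log2(TPM + 0.1). The SNHG28 gene ENSG00000188004.10 rose by 1.40 (SE 0.46, adjusted p = 0.0371) from 0.113 to 0.295 CPM. It overlaps the other SNHG28 gene, ENSG00000256029.6, along 20743 bases of the same strand, and the posterior SD of its count reached 58.3% of that count, so the assignment of reads between them is uncertain. ENSG00000256029.6 had a log2 fold change of 0.19 (adjusted p = 0.466). Without DMSO replicates 1 or 3, or without auxin replicates 2 or 3, each in turn, the call of ENSG00000188004.10 was lost (adjusted p up to 0.105).

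SNHG17, SNHG20 and SNHG4 passed as higher in edgeR with the block and not without it under TMM scaling. SNHG17 had a log2 fold change of 0.46 (adjusted p = 0.0726, and 0.000148 with the block). Without the block it passed with upper-quartile scaling (0.0448) and in DESeq2 (0.0283). SNHG20 had 0.39 (0.174 and 0.000591). SNHG4 had 0.26 (0.232 and 0.000956), and its mean TPM was 10.5 in DMSO and 9.97 in auxin. On the same strand, SNHG4 overlaps MATR3 along 10798 bases and SNHG20 overlaps SEC14L1 along 11154, so reads could be assigned to either gene. Mean CPM in DMSO and auxin were 26.5 and 28.9 for MATR3, and 111 and 106 for SEC14L1.

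The 4 hosts with names of their own did not pass the test without the block. GAS5 (chr1:173863900-173868882, - strand) had 46.0, 56.0 and 46.2 CPM in DMSO and 59.8, 58.4 and 51.5 in auxin. The groups overlapped through DMSO replicate 2, and each auxin library was above its same-numbered DMSO library. The log2 fold change was 0.20 (SE 0.10, adjusted p = 0.135), with 0.0120 under the block, 0.0351 with upper-quartile scaling and 0.0396 without DMSO replicate 2.

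ZFAS1 (chr20:49278178-49295738, + strand), host of SNORD12 and its relatives on the strand opposite ZNFX1, had 32.4, 43.5 and 38.1 CPM in DMSO and 35.1, 42.5 and 41.4 in auxin. The groups overlapped widely. Its log2 fold change was 0.06 (SE 0.12, adjusted p = 0.700, and 0.158 with the block). It was -0.07 on log2(TPM + 0.1) and -0.04 without DMSO replicate 1.

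DANCR (chr4:52712404-52720351, + strand), host of SNORA26, had 20.1, 19.3 and 17.9 CPM in DMSO and 18.5, 17.2 and 17.1 in auxin, with overlap. Its log2 fold change was -0.12 (SE 0.07, adjusted p = 0.220). With the block the adjusted p was 0.0327, and with upper-quartile scaling the log2 fold change was 0.0035.

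EPB41L4A-AS1 (chr5:112160526-112164276, + strand), host of SNORA13, had 6.37, 6.10 and 5.79 CPM in DMSO and 7.62, 6.25 and 6.22 in auxin. The lowest auxin value lay inside the DMSO range. Its log2 fold change was 0.14 (SE 0.11, adjusted p = 0.333) in counts and -0.20 on log2(TPM + 0.1).

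**Figure D2:**
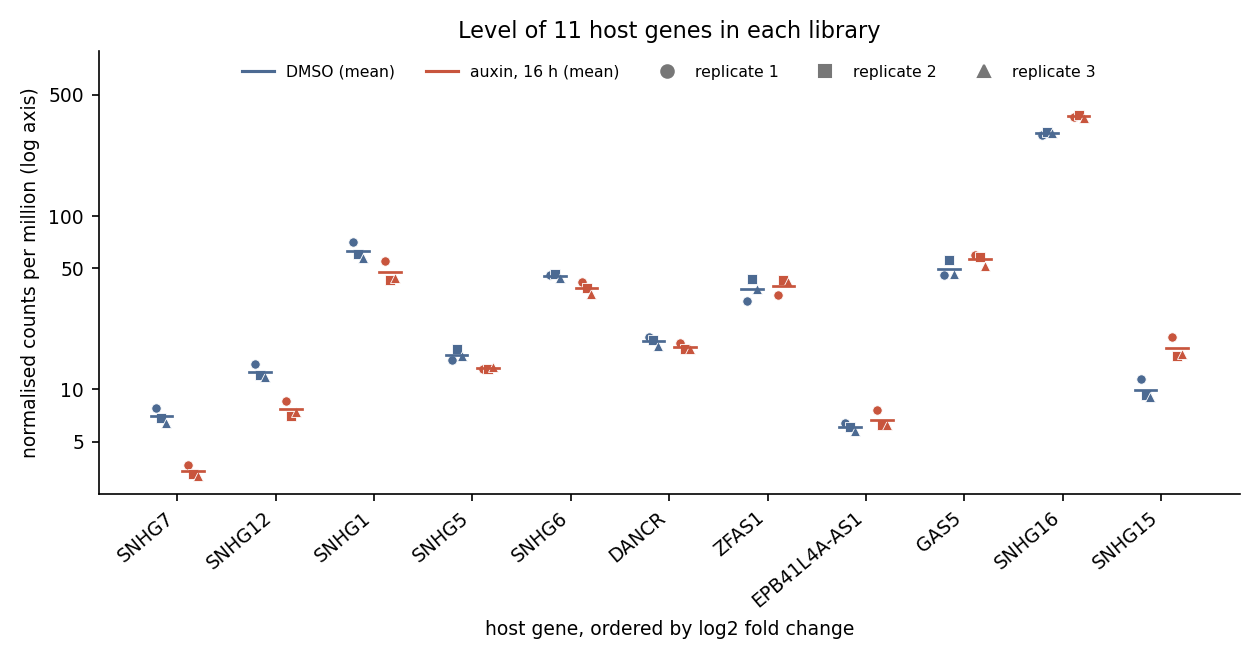
Normalised counts (CPM, log axis) of 11 host genes in the 3 DMSO and 3 auxin libraries, with marker shapes for the replicate number and bars at group means. SNHG7, SNHG12, SNHG1, SNHG5 and SNHG6 are lower and SNHG16 and SNHG15 higher in all auxin libraries, while DANCR, ZFAS1, EPB41L4A-AS1 and GAS5 overlap.

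The remaining tested hosts, SNHG22, SNHG25, SNHG19, SNHG10 and SNHG21, had log2 fold changes between -0.21 and 0.25, adjusted p-values between 0.256 and 0.872 and overlapping ranges. Later annotation gives SNHG names to 4 more genes in the tables. Of these, SNHG30 (listed as LINC02001, 2.30 to 0.873 CPM, log2 fold change -1.40, adjusted p = 0.000416) fell and SNHG29 (LRRC75A-AS1, 0.19, adjusted p = 0.0482) rose. SNHG31 (AC016708.1, 0.10) did not pass with or without the block. SNHG32 (C6orf48, -0.21) had an adjusted p of 0.263 without the block and passed as lower with it (0.000984).

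In 9 hosts at least 1 form gained or lost share of the gene's RNA. GENCODE annotates 258 transcripts for the 29 genes, of which 66 are of the type retained intron and 3, all in SNHG28, of the type nonsense-mediated decay. The annotation therefore does not mark NMD-sensitive forms of the other hosts. A transcript's share is its expected count as a percentage of its gene's, and the share was tested with limma on the log2 ratio of the transcript to the rest of the gene. Of 181 transcripts tested, 8 gained and 7 lost share at an adjusted p under 0.05. That is 8.29%, beside 9.31% of all transcripts tested (5.70% higher and 3.61% lower). With the replicate block 7 gained and 7 lost, where 9.65% of all passed (5.83% and 3.82%). Without DMSO replicate 1 the calls numbered 9, without auxin replicate 1 they numbered 11, and without any other single library they numbered 6.

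By level, 8 of 175 host transcripts rose and 12 fell in edgeR (11.4%, beside 19.7% of all transcripts tested, 8.43% higher and 11.2% lower). With the replicate block 21 rose and 21 fell, where 27.0% of all transcripts passed (12.8% and 14.1%), and without auxin replicate 3 the calls numbered 12. Of the 15 share changes, 6 were of at least 5 percentage points in hosts with a mean of at least 5 CPM. These were SNHG7-204, SNHG15-204, SNHG3-201 and DANCR-204, which gained, and SNHG1-213 and SNHG8-205, which lost.

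**Figure D3:**
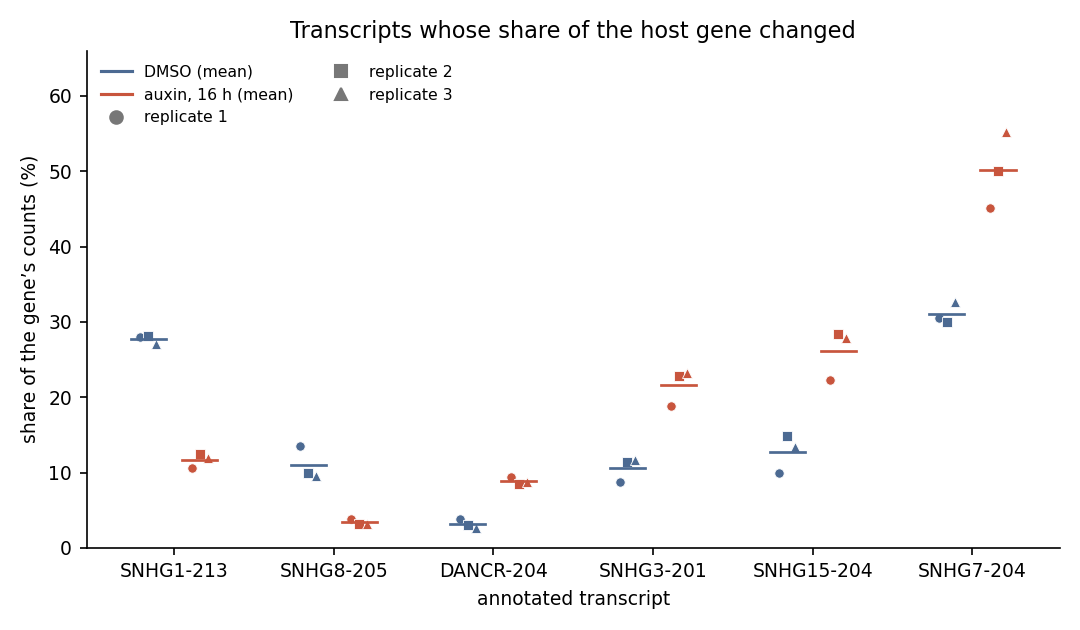
Share of the gene's expected counts (%) for the 6 transcripts in each library, with bars at group means. SNHG1-213 and SNHG8-205 are lower and the other 4 higher in every auxin library than in every DMSO library.

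SNHG15 moved toward a form that skips an exon. SNHG15-204, a 4-exon form, held 10.0%, 14.9% and 13.4% of the gene's counts in DMSO and 22.3%, 28.4% and 27.8% in auxin. The groups were apart by more than the spread within either. Its share rose by 1.29 on the log2 ratio scale (SE 0.25, adjusted p = 0.0309). Single left-out libraries gave adjusted p-values of 0.0467 to 0.107, with the call lost without each library except auxin replicate 1. The most abundant form, SNHG15-203, went from 43.2% to 38.2%.

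SNHG15-204 lacks a 70-base exon of SNHG15-203. Over all forms that include or skip this exon, inclusion by TPM was 78.6%, 67.9% and 70.5% in DMSO and 57.6%, 49.6% and 50.1% in auxin. All auxin libraries were below all DMSO libraries, by 19.9 points in the mean. The gap between the groups was smaller than the spread within DMSO. The exon is printed in capitals with 15 bases of the exons on either side in lower case, from the GENCODE transcript, since the change of form lies in it.
SNHG15 70-base exon, chr7:44984357-44984426, - strand: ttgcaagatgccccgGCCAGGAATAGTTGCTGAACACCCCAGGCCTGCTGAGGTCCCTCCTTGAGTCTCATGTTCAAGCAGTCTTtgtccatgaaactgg

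SNHG1 lost share of its 10-exon spliced form. SNHG1-213 held 28.0%, 28.2% and 27.1% of the gene's counts in DMSO and 10.6%, 12.4% and 11.9% in auxin. It was the most abundant SNHG1 form in each DMSO library except DMSO replicate 3, where SNHG1-209 held 27.6%, and SNHG1-209, annotated as a retained intron, was above it in every auxin library. Its share fell by 1.54 on the log2 ratio scale (SE 0.13, adjusted p = 0.00272), and the call held without any single library (largest adjusted p 0.0225). SNHG1-223, named after its values were seen, rose from 0.420% to 3.59% (adjusted p = 0.00915).

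SNHG1-223 lacks 2 exons of SNHG1-213, of 51 and 47 bases. Inclusion of the 51-base exon by TPM was 71.3%, 60.9% and 58.3% in DMSO and 56.6%, 32.9% and 40.2% in auxin. Inclusion of the 47-base exon was 94.8%, 96.5% and 95.8% in DMSO and 88.8%, 86.0% and 81.4% in auxin. Both were lower in every auxin library, and for the 51-base exon the gap between the groups was smaller than the spread within either. For the 47-base exon the gap was smaller than the spread within auxin. Both exons are printed with capitals as before, because they are what the 2 forms differ by inside the gene.
SNHG1 51-base exon, chr11:62854888-62854938, - strand: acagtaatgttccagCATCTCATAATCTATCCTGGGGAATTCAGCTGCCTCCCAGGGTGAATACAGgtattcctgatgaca
SNHG1 47-base exon, chr11:62854018-62854064, - strand: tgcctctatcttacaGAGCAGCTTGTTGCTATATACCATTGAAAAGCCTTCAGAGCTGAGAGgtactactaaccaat

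SNHG8, host of SNORA24, lost share of the form that carries a separate 194-base exon. SNHG8-205 held 13.5%, 9.95% and 9.49% of the counts in DMSO and 3.87%, 3.18% and 3.13% in auxin. Its share fell by 1.80 on the log2 ratio scale (SE 0.23, adjusted p = 0.00870), and the call held without any single library (largest adjusted p 0.0417). SNHG8-203, which joins the exons on either side directly, went from 20.7% to 36.5%, and its share did not pass (adjusted p = 0.0659, and 0.0215 with the block). The most abundant form, SNHG8-201, in which the same stretch is part of a longer opening exon, went from 53.6% to 48.3%.

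Inclusion of the 194-base exon, as SNHG8-205 against SNHG8-203, was 30.5%, 17.5% and 17.9% in DMSO and 5.84%, 3.99% and 3.94% in auxin by TPM. A 31-base exon that shares its 3′ end, used by SNHG8-202, was included at 35.7%, 29.3% and 24.1% in DMSO and 20.4%, 14.2% and 13.1% in auxin. Both were lower without overlap of the groups, and for both the gap between the groups was smaller than the spread within DMSO. The 31-base exon is printed because its letters are also the last 31 of the longer one, so both exons end alike and differ in where they start.
SNHG8 31-base exon, chr4:118279107-118279137, + strand: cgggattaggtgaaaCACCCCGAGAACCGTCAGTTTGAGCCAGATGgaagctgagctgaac

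**Figure D4:**
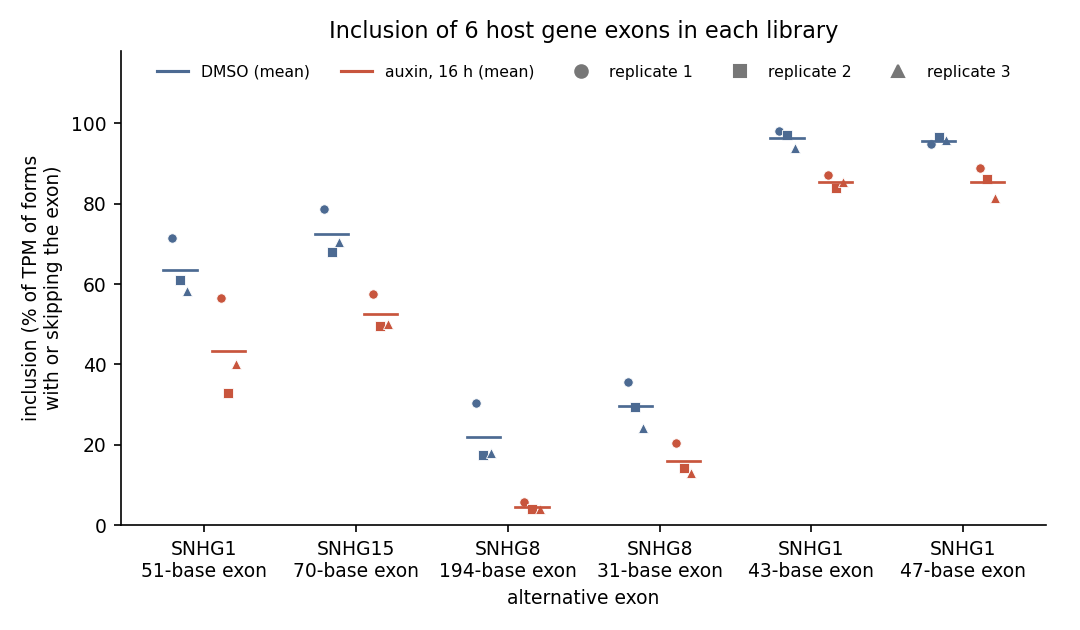
Inclusion (% of the TPM of forms that carry or skip the exon) of the 6 host gene exons that moved by at least 5 points with groups apart, per library. All 6 are lower in every auxin library than in every DMSO library, with the 51-base SNHG1 exon and the 70-base SNHG15 exon falling furthest.

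Across the hosts with a mean of at least 5 CPM, 42 alternative exons in 13 hosts could be followed in this way. Inclusion was lower by at least 5 points with groups apart for 6 (beside 6.19% of 33002 such exons in all genes) and higher for 0 (beside 3.47%, and 9.66% in either direction). The 6 were the exons already described and a 43-base exon of SNHG1-204, which went from 98.0%, 97.0% and 93.8% to 87.0%, 84.0% and 85.3%. The values of this 43-base exon compare only SNHG1-204 with 1 form that skips it. Together these forms held 4.15 to 5.52 TPM per library, in a gene at 41.8 to 103 TPM. Exons of a gene share transcripts, so the 6 are not independent of each other. The shares rest on the authors' assignment of reads to annotated forms, and the posterior SD of the 6 named transcripts was at most 1.24% of the gene's count.

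SNHG7 lost its spliced forms more than its long 2-exon form. SNHG7-204 held 30.6%, 30.1% and 32.7% of the counts in DMSO and 45.2%, 50.1% and 55.3% in auxin. Its share rose by 1.16 on the log2 ratio scale (SE 0.21, adjusted p = 0.0254), with the call lost without each library except auxin replicate 1 (largest adjusted p 0.110). Its level had a log2 fold change of -0.36 (adjusted p = 0.163). SNHG7-203, the most abundant form in DMSO, fell by 1.53 on the log2 scale in level (adjusted p = 0.00525), and SNHG7-202 fell by 1.49 (adjusted p = 0.00856). The second exon of SNHG7-204 runs through a 629-base intron that SNHG7-201 and SNHG7-202 splice out. Retention of that intron by TPM was 36.1%, 28.1% and 30.5% in DMSO and 49.7%, 45.8% and 54.7% in auxin.

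In SNHG3 a spliced form gained share. SNHG3-201, with 3 exons, held 8.73%, 11.4% and 11.7% of the counts in DMSO and 18.8%, 22.8% and 23.2% in auxin, without overlap. Its share rose by 1.22 on the log2 ratio scale (SE 0.20, adjusted p = 0.0202), with the call lost without any single one of DMSO replicates 2 and 3 and auxin replicates 2 and 3 (largest adjusted p 0.0779). SNHG3-202, annotated as a retained intron and the most abundant form, went from 84.5% to 75.3% (adjusted p = 0.0559). SNHG3 lies within RCC1 on the same strand along 4913 bases, so reads could be assigned to either gene. RCC1 had 108 and 109 CPM in the 2 groups (log2 fold change 0.01, adjusted p = 0.898).

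DANCR-204, which joins exons of DANCR-201 to 2 exons further downstream, held 3.84%, 3.03% and 2.64% in DMSO and 9.47%, 8.45% and 8.71% in auxin. Its share rose by 1.59 on the log2 ratio scale (SE 0.22, adjusted p = 0.0109), and the call was lost without DMSO replicate 2 (adjusted p = 0.0571). Its level rose by 1.37 (adjusted p = 0.0104) while that of DANCR-201, the most abundant form, had a log2 fold change of -0.07 (adjusted p = 0.729).

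**Figure D5:**
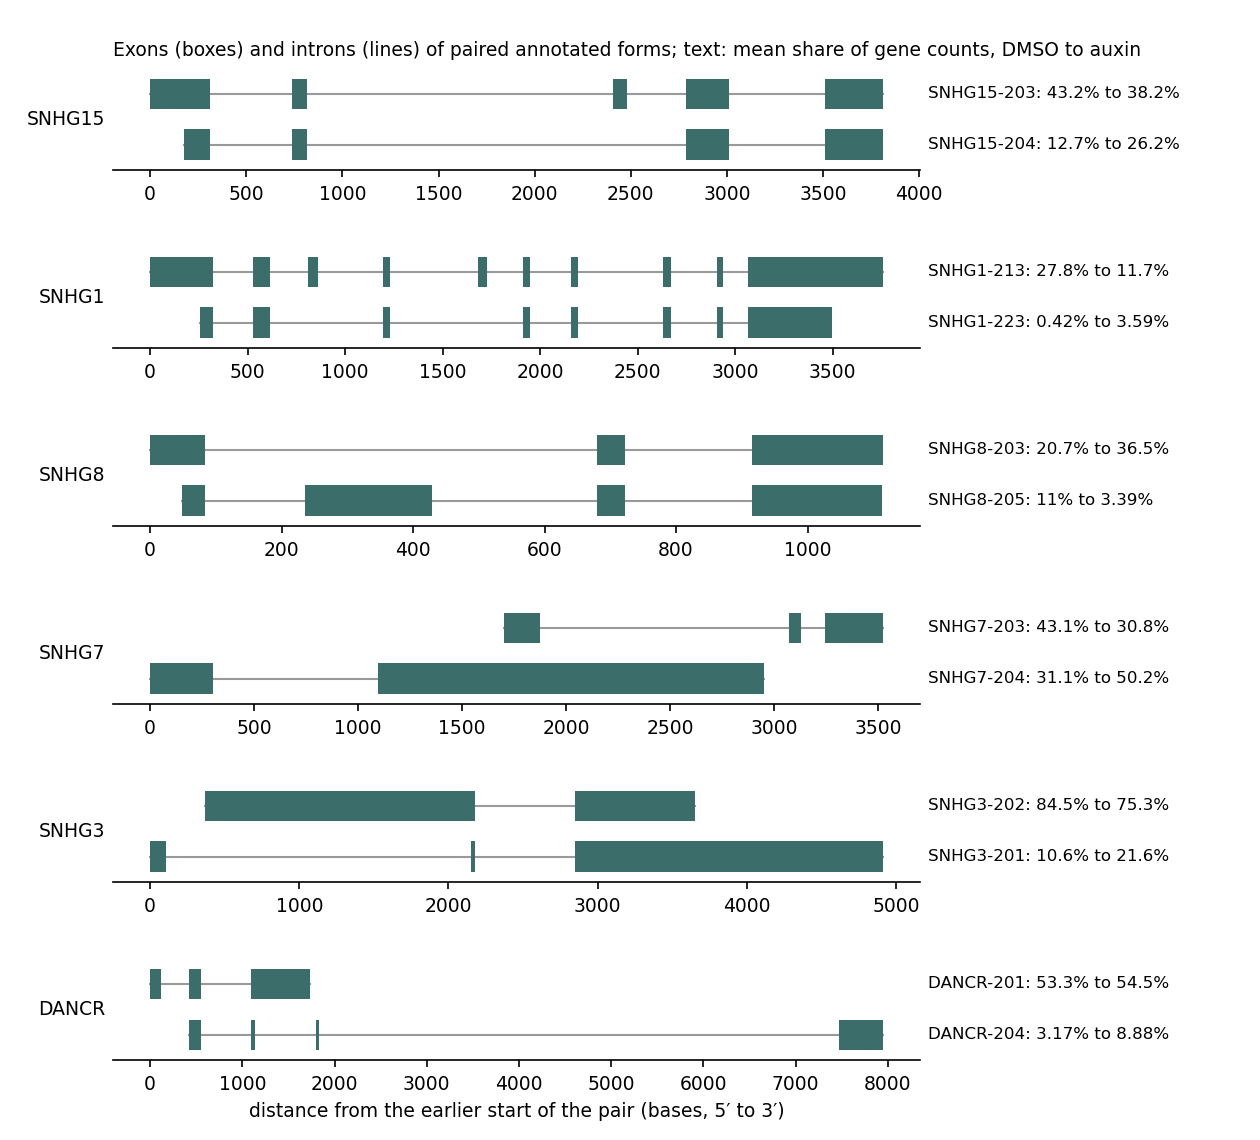
Exons (boxes) and introns (lines) of a pair of annotated forms for 6 host genes, drawn to scale from the earlier start of the pair (bases, 5′ to 3′), each with its mean share of the gene's counts in DMSO and auxin. SNHG15-204 lacks a 70-base exon of SNHG15-203, SNHG1-223 lacks 2 exons of SNHG1-213, and SNHG7-204 has a long second exon that runs past the end of the opening exon of SNHG7-203.

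The other 9 share changes, SNHG1-223 among them, were of under 5 points and are named after their values were seen. SNHG6-201 rose from 2.16% to 5.10% (adjusted p = 0.00894), and SNHG6-202 fell from 1.31% to 0.543% (0.0470). GAS5-218, an 11-exon spliced form, rose from 6.78% to 10.3% (0.0496). The retained-intron forms GAS5-207 and GAS5-217 fell from 3.02% to 1.37% (0.0434) and from 1.48% to 0.453% (0.0248). SNHG1-202 fell from 1.04% to 0.191% (0.00819), SNHG15-206 fell from 3.13% to 1.41% (0.0499) and SNHG5-223 rose from 0.178% to 1.16% (0.0238). SNHG1-202, SNHG1-223 and SNHG6-201 passed without any single library (largest adjusted p 0.0460), and each of the other 6 lost its call without at least 5 of the 6 libraries, each left out in turn. With the block, GAS5-207, GAS5-218, SNHG15-206, SNHG5-223 and SNHG6-202 did not pass (adjusted p from 0.0505 to 0.0918), while SNHG3-202, SNHG7-203, SNHG8-203 and ZFAS1-210 did (0.0187 to 0.0484). The most abundant forms of the other named hosts did not pass the share test. GAS5-210, a retained-intron form, went from 21.1% to 16.7% (0.244), and ZFAS1-209 from 35.1% to 34.8% (0.987). SNHG16-202 went from 65.6% to 63.2% (0.525), SNHG5-202 from 38.0% to 38.7% (0.928) and SNHG6-203 from 65.0% to 67.1% (0.558). EPB41L4A-AS1-201 went from 66.6% to 68.9% (0.684), and SNHG12-209, a retained-intron form, from 29% to 37.6% (0.235).

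Summed over all transcripts annotated as retained intron, the share could be given for 12 hosts with such forms. It was below the DMSO range in all auxin libraries for 3 and above it for 0, where 7.33% of 7422 genes were below and 23.0% above (30.3% in either direction). SNHG3 had 91.3%, 88.6% and 88.3% in DMSO and 81.2%, 77.2% and 76.8% in auxin. SNHG5 had 36.6%, 27.6% and 29.7% in DMSO and 27.1%, 21.5% and 21.0% in auxin, and DANCR had 37.5%, 46.3% and 40.2% against 35.8%, 35.1% and 30.9%. The mean share of SNHG3 changed by -11.0 points by counts and by -5.17 points by TPM. For SNHG5 and DANCR the gap between the groups was smaller than the spread within them. The two-sided exact permutation p was 0.1 for each, the smallest that 3 against 3 libraries allow, and 0.40 after adjustment over the 12. GAS5, with 66.9% ± 1.86 in DMSO and 64.1% ± 1.86 in auxin (SD, n = 3 each), overlapped. By TPM the 3 hosts apart were SNHG3, DANCR and GAS5 (54.8% to 50.2%), while SNHG5 overlapped (19.7% to 14.8%). Within same-numbered pairs, the share by counts fell in all 3 pairs for SNHG3, SNHG5, DANCR, SNHG26, GAS5, SNHG6 and SNHG16. It rose in all 3 for SNHG17 and for SNHG1, by 5.02, 4.43 and 2.69 points in SNHG1. These paired differences were not tested, and the share of all genes with such pairs is not given here. By TPM the mean retained-intron share of SNHG1 was 48.2% in DMSO and 48.5% in auxin, with overlap. Without auxin replicate 1 the groups were apart for 8 hosts (2 above), and without auxin replicate 2 for 6 (2 above). Fewer values make separate ranges easier, and the share of all genes with these libraries left out is not given here.

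Single introns moved both ways. Of 67 introns in 13 hosts with annotated forms that keep and that splice them, retention by TPM was higher by at least 5 points with groups apart for 8 (beside 21.8% of 10839 in all genes) and lower for 4 (beside 2.36%, and 24.2% in either direction). The largest rise was a 111-base intron of GAS5, from 57.6%, 43.6% and 36.3% in DMSO to 64.7%, 73.4% and 61.6% in auxin. It compares 1 form that keeps the intron with 1 that splices it, together at 2.9 to 6.01 TPM per library. GAS5 as a whole was at 68.2 to 99.0 TPM, and the gap between the groups was smaller than the spread within DMSO. Next came the SNHG7 intron and a 151-base intron of SNHG8 that compares SNHG8-201 with SNHG8-205. The largest fall was in a 1974-base intron of SNHG15 that spans the 70-base exon, from 33.2%, 27.6% and 30.3% to 18.0%, 14.3% and 14.0%. This value sets 1 form that keeps the intron against 1 that splices it and so skips the exon. Together these forms held 2.94 to 4.07 TPM in DMSO and 7.85 to 10.54 in auxin. The introns on either side of the exon, of 1594 and 310 bases, had overlapping groups (means 14.6% to 14.3% and 20.6% to 20.2%). The fall is therefore not separate from the exon skipping described above. The others that fell lay in SNHG1 (648 bases, means 96.6% to 85.7%), SNHG5 (461 bases, 89.3% to 79.5%) and ZFAS1 (332 bases, 9.65% to 4.51%). In each, the gap between the groups was smaller than the spread within DMSO. The SNHG1 intron spans the 43-base exon named above and sets 1 form against 1, together at 4.14 to 7.40 TPM per library. The SNHG5 intron spans an alternative exon of 81 bases. Introns of a gene share transcripts with each other and with its alternative exons, so these changes are not independent. The 344-base and 516-base introns of SNHG16, both counted among the 8, had the same values in every library.

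GENCODE places 137 snoRNA and small Cajal body RNA (scaRNA) genes inside 26 of the hosts, and 90 of them were at 0 in every library. Of the 34 tested, in 20 hosts, 1 rose and 0 fell, beside 52.3% of all genes called. It was SCARNA13 in SNHG10 (4.95 ± 0.467 to 6.20 ± 0.570 CPM, SD, n = 3 each, log2 fold change 0.33, SE 0.12, adjusted p = 0.0483), and this call was lost without any single library except DMSO replicate 3 (up to 0.129). In edgeR 0 were lower and 1 higher at an unadjusted p under 0.05, and in DESeq2 0 were lower and 1 higher after adjustment. With the block, 3 rose: SCARNA13, SNORA73B and SNORA71A. Ranges overlapped for 33 of the 34.

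In hosts with lower counts after auxin, the snoRNA genes gave log2 fold changes of either sign with wide errors. In SNHG1 (-0.42), SNORD22 had -0.55 (SE 0.57) and SNORD26 -0.46 (SE 0.54), as large as the change of the host. In SNHG6 (-0.23), SNORD87 had -0.27 (SE 0.57), and in SNHG9 (-0.67), SNORA78 had 0.02 (SE 0.44). In SNHG3 (-0.59), SNORA73A had 0.11 (SE 0.33) and SNORA73B 0.18 (SE 0.43). In SNHG11 (-0.56), SNORA60 had -0.26 (SE 0.41), and in SNHG8 (-0.19), SNORA24 had -0.09 (SE 0.70). In SNHG12 (-0.71), SNORA16A, SNORA44, SNORA61 and SNORD99 lay between -0.13 and 0.25. In SNHG7 (-1.06), the 2 genes named SNORA17B had 0.06 and 0.13 and RF00560 had -0.05. Standard errors over the 34 ran from 0.12 to 1.48, and the difference between a host and its snoRNA was not tested. The deposited effective lengths correspond to mean fragments of 200 to 209 bases, while most of the tested snoRNA genes are shorter, and how much mature snoRNA entered the libraries is not known. No snoRNA gene was matched by position inside GAS5.

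Several hosts share a locus with a gene on the other strand. There were 22 such neighbours tested, overlapping a host or starting within 1000 bases of its start, and 6 rose and 7 fell, where 52.3% of all genes passed. ZBTB37, FAM69B and RPS2 lost their calls with upper-quartile scaling (adjusted p 0.121, 0.0699 and 0.482). SLC3A2, which encodes an amino acid transporter subunit and starts 188 bases from SNHG1 on the other strand, rose by 0.83 on the log2 scale (122 to 217 CPM, adjusted p = 7.37e-05) where SNHG1 fell. TRNAU1AP, overlapping SNHG12 by 8 bases, rose by 0.66 (adjusted p = 0.000780) where SNHG12 fell. FAM69B overlaps SNHG7 by 2685 bases and fell by 0.84 on the log2 scale (adjusted p = 0.0313), as SNHG7 did. ZNFX1, opposite ZFAS1, fell by 0.31 on the log2 scale (adjusted p = 0.00239), and TRAF7, starting 340 bases from SNHG19, fell by 1.80 (adjusted p = 8.46e-06).

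GAS5-AS1, which overlaps GAS5 by 42 bases, rose by 2.53 on the log2 scale from 0.0864 to 0.490 CPM (adjusted p = 0.000318). ZBTB37, overlapping GAS5 by 801 bases, fell by 0.37 (adjusted p = 0.0197). EPB41L4A, whose span covers all of EPB41L4A-AS1, fell by 0.39 (adjusted p = 0.00346), and SIL1, which covers SNHG4, rose by 0.43 (adjusted p = 0.00181). The library kit keeps strand, but whether counting used it is not given in the sources used here, so for overlapping pairs the reads of one gene could enter the other.

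The genes of proteins that act on host RNAs moved in both directions. Their counts stand beside 52.3% of all genes called (25.4% higher and 26.9% lower). Among 8 core snoRNP proteins, 5 rose and 2 fell. NOP56, a core box C/D protein that is itself encoded by a snoRNA host gene, fell by 0.92 on the log2 scale (105 to 55.6 CPM, adjusted p = 0.000661), and FBL, the 2′-O-methyltransferase, fell by 0.26 (adjusted p = 0.0192, and 0.0679 with upper-quartile scaling). DKC1, the pseudouridine synthase of H/ACA particles, rose by 0.69 (adjusted p = 0.00155). On log2(TPM + 0.1) with limma, NOP56 passed as lower (adjusted p = 0.0174) and none of the other core proteins passed (0.0815 for DKC1). There 21.5% of all genes passed. Among 11 genes listed as assembly factors 5 rose and 3 fell, with PIH1D1 lowest (-1.73, adjusted p = 9.87e-05) and RUVBL2 at -0.89. The 5 include AAR2 (0.52, adjusted p = 0.000234), whose part in snoRNP assembly is not established here. On log2(TPM + 0.1), RUVBL1 passed as higher, and PIH1D1, RUVBL2 and ZNHIT3 as lower.

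Of 10 NMD factors, 2 rose and 3 fell, near the 52.3% of all genes called. UPF1, the helicase at the centre of the pathway, fell by 1.55 on the log2 scale, from 89.2 to 30.4 CPM (adjusted p = 2.06e-05). SMG9, a regulator of the kinase SMG1, fell by 0.99 (adjusted p = 0.000728) and UPF3A by 0.26 (adjusted p = 0.0458, and 0.296 with upper-quartile scaling). SMG8 rose by 0.53 on the log2 scale. With the block, 5 rose and 5 fell, where 69.9% of all genes passed (35.5% higher and 34.4% lower). On log2(TPM + 0.1), UPF1 passed (adjusted p = 0.00767) and the other 9 did not, where 21.5% of all genes passed. Of 6 exon junction complex genes 2 rose (CASC3 and RNPS1) and 0 fell, beside 25.4% of all genes higher and 26.9% lower, with 0 lower and 3 higher at an unadjusted p under 0.05 in edgeR and 0 lower and 3 higher in DESeq2. With the block, 5 rose, beside 35.5% of all genes.

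Among 12 protein-coding genes known as NMD targets, 8 rose and 2 fell (25.4% and 26.9% of all genes), with a median log2 fold change of 0.51 beside 0.02 over all genes. On log2(TPM + 0.1), 3 rose (SLC7A11, GADD45A and ATF3) and 1 fell (PISD), beside 5.16% and 16.3% of all genes. SLC7A11, a cystine transporter, rose by 1.11 (adjusted p = 2.24e-05) and PISD, a mitochondrial phospholipid enzyme, fell by 2.29 on the log2 scale (adjusted p = 5.99e-06). The 8 that rose include ATF4, ATF3 and DDIT3, which are also genes of the stress response. GAS5 and ZFAS1, non-coding NMD targets, had 0.20 and 0.06, as given above. Whether UPF1 moves with the host genes was not tested.

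Of 6 regulators of TOP mRNAs, LARP1, LARP4 and EIF4EBP1 rose and MTOR and RPTOR fell, beside 52.3% of all genes called. RPTOR lost its call with upper-quartile scaling (adjusted p = 0.233). Among the hosts with a pyrimidine start in RefSeq, SNHG12 and SNHG5 fell, ZFAS1, SNHG4 and SNHG19 did not pass without the block, and SNHG18 was at 0. Protein-coding genes with an annotated snoRNA or scaRNA inside numbered 273, of which 241 were tested: 74 rose and 61 fell, beside 25.4% and 26.9% of all genes, with a median log2 fold change of 0.12. The non-coding hosts' median was 0.05, and the difference between these sets was not tested.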

How the data were processed

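Each library came with a gene and a transcript table. The expected counts (unrounded estimates), TPM, isoform percentages (percent of the gene) and posterior SD scores are the authors' deposited values per the file headers, whose layout is that of RSEM. The submitters' processing notes name bcl2fastq 2.20, STAR, DESeq2 and GRCh38. Counting tool, annotation and use of strand are not given in the sources used here. GENCODE 29 held 58780 of the 59526 gene IDs; the other rows held at most 0.00111% of counts and were left out.

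Expected counts were rounded. Genes and transcripts were tested with edgeR 4.0.16 (filterByExpr, TMM, glmQLFTest), shares with limma 3.58.1 (prior count 0.5, mean counts of at least 10 per transcript and 100 per gene), all with Benjamini-Hochberg adjustment over the whole table. DESeq2 1.42.0 was an alternative. Inclusion and retention shares are ratios of summed TPM of annotated forms (mean of at least 1 TPM) and carry no test. The procedures were also run on simulated counts. Those lacked deviations shared by same-numbered libraries, so that run does not measure the error of the calls given here. The values of 1 gene counted among those that rose are not reported here. Members, lists and tests were chosen with earlier results of these data known. Full values were given for GAS5, ZFAS1, DANCR, EPB41L4A-AS1 and called SNHG genes of at least 5 CPM, for transcripts with called shares that moved by at least 5 points, and for the most abundant form of a named host. Deviations from group means correlated between same-numbered libraries (0.861, 0.634 and 0.607). Because each group is centred, a deviation shared by the replicate 1 libraries, the deepest of each group, can raise all of these values. Libraries with different numbers were not compared, so the correlations cannot show which libraries are pairs. The replicate block and the paired differences therefore rest on the numbers as an assumption, and the main test did not use it.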

Additional observations from a re-analysis of the deposited data

How the results depend on the processing

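The number of host genes called, 10, became 5 on log2(TPM + 1) and on log2(TPM + 0.1), 18 with the replicate block, 17 with replicates 2 and 3 only (62.0% of all genes there), and 6 to 11 with single libraries left out. Host transcripts called by level, 20, became 42 with the replicate block and 12 to 21 with single libraries left out. Host transcripts called by share, 15, ranged from 6 to 11 with single libraries left out and were 14 with the replicate block. The snoRNA count, 1, became 0 without the low-count filter, 3 with the replicate block, and 0 to 1 with single libraries left out (1 lower without DMSO replicate 1). Neighbours called, 13, became 4 on log2(TPM + 1) and 5 on log2(TPM + 0.1), and pathway genes called, 37 of 53, became 12 on both. Hosts with retained-intron shares apart, 3, became 9 with replicates 2 and 3 only and 3 to 8 with single libraries left out, where fewer values make separate ranges easier. Alternative exons apart, 6, became 10 with replicates 2 and 3 only, and introns apart, 12, became 5 at a change of at least 10 points. Shares of all genes with single libraries left out are not given here, nor are those of retained-intron shares and exons with replicates 2 and 3 only. Except where stated, the cause was not tested.

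Directions reversed in values that did not pass in edgeR without the block, some of which passed with it: DANCR with upper-quartile factors (0.0035), ZFAS1 on log2(TPM + 0.1) (-0.0671) and log2(TPM + 1) (-0.0665) and with single libraries left out (-0.0371 to 0.150), EPB41L4A-AS1 on log2(TPM + 0.1) (-0.20) and log2(TPM + 1) (-0.18), SNHG4 on log2(TPM + 0.1) (-0.0618) and log2(TPM + 1) (-0.0573), and, with single libraries left out, SNORA71A (-0.0875 to 0.496) and SNORA73B (-0.160 to 0.464). The exon and intron alternatives, and those of neighbours and pathway genes, were chosen after seeing the data. Among tested hosts the standard error was widest for SNHG28 (ENSG00000188004.10, 0.46), the host with the lowest mean CPM (0.204), and over the hosted snoRNA genes it reached 1.48.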
